A study of Mus musculus with 3 samples.

Results

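Neb, the gene of nebulin, was followed in cDNA molecules read from end to end by PacBio Iso-Seq in 2 leg muscles of the mouse, the fast-twitch extensor digitorum longus (EDL) and the slow-twitch soleus. It was taken by its symbol from every deposited sheet that holds it. It is 1 gene of 48395 in the gene table, and 190 of the 27271 exonic parts belong to it. An exonic part is a stretch of a gene between neighbouring exon borders. The whole EDL, the whole soleus and the apex of the heart came from wild-type (wt in the sample titles) male C57BL/6 mice of 8 weeks. No treatment or altered allele was named, and each tissue gave 1 library. The number of mice per library is not stated in the labels. Every difference below is therefore between single libraries with no replicate check, and an interval or a p-value covers counting error only.

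Nebulin is a giant protein that runs along the actin thin filament of skeletal muscle, with its end in the Z-disc. Its mRNA is a long series of exons, most of which encode copies of a short actin-binding repeat, and loss of nebulin causes nemaline myopathy. Toward the Z-disc end, some repeats are taken up or left out by alternative splicing, and 1 place offers a choice between a pair of exons.

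The cDNA had been selected for molecules of 5 to 10 kb, which is shorter than a whole nebulin mRNA, so each read shows a stretch of it. A full-length read comes from 1 sequenced molecule, and a consensus read merges full-length reads judged to be of the same transcript. The libraries held 19826 (EDL), 17459 (soleus) and 18302 (cardiac) consensus reads in genes. Their labels were set against fibre markers. Consensus reads of 10 fast-fibre genes summed to 683 in EDL, 438 in soleus and 26 in cardiac muscle. Those of 7 slow-fibre genes summed to 18, 456 and 53, with 6 of the 7 at 0 in EDL and 3 at 0 in soleus. Most of the soleus sum was the slow myosin Myh7, at 433 there against 18 in EDL. Atp2a2 stood at 21 in soleus and 0 in EDL, and no other slow-fibre gene passed 1 read in soleus. The slow-fibre contrast thus rests mainly on Myh7. The fast myosin Myh4 had 432 in EDL and 135 in soleus and Myh1 had 119 and 100, while Myh2, also on the fast list, had 56 in EDL and 174 in soleus. Consensus reads of 6 cardiomyocyte genes summed to 32 in EDL, 31 in soleus and 2356 in cardiac muscle, with Myh6 at 30, 31 and 2060. Those of 4 fibroblast genes summed to 4, 5 and 0, and those of 3 endothelial genes to 17, 22 and 36, all from Kdr. Schwann cell and myelin markers (3 genes) were at 0 in all libraries. With cDNA selected for 5 to 10 kb, a count of 0 does not show that a gene was silent. The fibre make-up moves with every comparison of EDL and soleus below, and its part in them was not tested.

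The exons that differed lie near the 3′ end of Neb, on the minus strand of chromosome 2 in the mouse build GRCm38. The authors phased 24 exons in a region that runs from NM_010889_exon_122 to NM_010889_exon152, as their sheet names them, so the numbers used here are those of RefSeq. At the first site, a read takes either the exon that RefSeq has there, NM_010889_exon_123 and here called the reference exon (chr2:52186012-52186116), or an alternative exon (chr2:52185271-52185375, exon 7 of ENSMUST00000148356). Of the 161 coding parts tested in Neb, 147 have a length that is a multiple of 3, and 55 have 105 nt. Both choices are coding exons of 105 nt that begin in frame, so that either leaves the reading frame as it is. They are printed 5′ to 3′ from the GENCODE M21 transcripts to show how unlike the choices are, with the 40 of 105 positions that hold the same base in both in capitals.
reference exon: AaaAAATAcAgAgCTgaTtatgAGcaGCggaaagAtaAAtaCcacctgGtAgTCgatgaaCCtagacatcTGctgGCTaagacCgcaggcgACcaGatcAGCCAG
alternative exon: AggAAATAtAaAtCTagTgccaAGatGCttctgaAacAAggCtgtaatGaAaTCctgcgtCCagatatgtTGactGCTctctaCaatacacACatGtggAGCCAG
The 2 exons thus matched at 38.1% of positions, without gaps. The reference exon matched the constitutive exon 124 at 54.3% of positions and the alternative exon matched it at 31.4%, the lowest share among the 36 pairs of the 9 exons of this length.

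The second site holds 11 variable exons from exon 138 to exon 151. They are exons 138, 140, 143, 146, 147, 148, 150 and 151 and, between exons 147 and 148, a run of 3 exons outside the RefSeq numbering. In order from the 5′ side, these are called here extra exon 1 (chr2:52156355-52156447, exon 143 of ENSMUST00000075301), extra exon 2 (chr2:52154554-52154662, found in the reads and absent from the annotation the authors used) and extra exon 3 (chr2:52153683-52153775, exon 3 of the non-coding transcript ENSMUST00000137410). Of the 11, 10 have lengths that are multiples of 3. Extra exon 2, with 109 nt between its deposited borders, does not, and what this means for the reading frame was not tested. In place of an exon number, the authors' Neb sheet gives this exon the word human. Exon 149 (chr2:52151364-52151456) lies among the variable exons and was held by most reads of both libraries. It is printed with its neighbours exon 147 (chr2:52157291-52157383), extra exon 1, extra exon 3 and exon 148 (chr2:52153056-52153148), which EDL mostly left out. Capitals mark the bases that differ from exon 149.
exon 149: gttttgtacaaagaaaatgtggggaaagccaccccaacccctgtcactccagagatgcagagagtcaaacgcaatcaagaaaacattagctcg
exon 147: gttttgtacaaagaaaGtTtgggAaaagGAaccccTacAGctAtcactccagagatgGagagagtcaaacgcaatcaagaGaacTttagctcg
extra exon 1: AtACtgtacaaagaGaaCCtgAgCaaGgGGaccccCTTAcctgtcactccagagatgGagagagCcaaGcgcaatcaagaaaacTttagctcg
extra exon 3: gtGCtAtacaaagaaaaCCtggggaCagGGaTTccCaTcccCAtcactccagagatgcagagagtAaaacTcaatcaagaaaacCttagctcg
exon 148: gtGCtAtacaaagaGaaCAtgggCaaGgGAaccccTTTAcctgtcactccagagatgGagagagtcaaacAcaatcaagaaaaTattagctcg
Exon 147 differed from exon 149 at 12 of 93 positions, and exon 148 and extra exon 3 at 17 each. The pairs of the 10 phased exons with 93 nt matched at 53.8% to 87.1% of positions, with a median of 78.5%. Most of the exons start 2 codons before a tyrosine and a lysine codon, the end of the actin-binding motif that continues from the preceding exon. The letters TACAAA, or the same with TAT for TAC, AAG for AAA or both, stood at bases 7 to 12, read in frame on the coding strand only with no overlap of matches, in 16 of the 22 phased exons with an annotated frame. The same held for 77 of 119 Neb coding exons of 93 to 114 nt (64.7%) and for 62 of 28941 such exons of other genes (0.214%). The reference exon lacks these letters and the alternative exon has them.

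Neb was among the genes with the most consensus reads in both leg muscle libraries, whose cDNA was size-selected. It had 451 consensus reads in EDL (2.27% of reads in genes, 95% interval 2.07 to 2.49, rank 2) and 249 in soleus (1.43%, 1.26 to 1.61, rank 3). Cardiac muscle had 2 reads, and the ratio over it was 208 for EDL (interval 57.3 to 1724) and 131 for soleus (35.8 to 1084). EDL stood 1.60-fold above soleus (1.36 to 1.87), an interval that does not lie wholly beyond 2-fold, so Neb was not called between the leg muscles. In that comparison 9 of 494 genes with at least 20 reads were called (1.82%), 2 higher in EDL (0.405%) and 7 in soleus (1.42%). Taken from the part of Neb that each library covered best, the ratio in full-length reads was 1.09 (0.991 to 1.20), with 862 reads in EDL and 912 in soleus. Consensus reads over the part that each library covered best gave 1.09 as well (0.902 to 1.31). That part was not the same one in EDL and soleus. In consensus reads the ratio between the best covered parts was thus lower than the ratio over the whole gene. No ratio over the whole gene was computed in full-length reads. In whole muscle, fewer cells that make Neb and less Neb RNA per cell cannot be told apart.

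Of the 36 genes of the thin filament and Z-disc in a list of nebulin's partners, 7 had enough reads to be compared. None was called in either direction, which for 7 genes is near the share over all genes (9 of 494, 1.82%). The interval of the ratio, EDL over soleus, lay above 1 for 2, Ttn (1.91 to 2.34) and Xirp2 (1.11 to 2.04). It lay below 1 for 3, Nrap (0.377 to 0.702), Xirp1 (0.290 to 0.803) and Actn2 (0.193 to 0.873). The median of the 7 log2 ratios, EDL over soleus, was 0.24, against -0.06 over the 494 genes. Ttn, the giant spring protein titin, had 1264 reads in EDL and 527 in soleus. Nrap, which helps assemble myofibrils, had 68 and 116. Xirp2, an actin-binding Xin-repeat protein, had 121 and 71, and Tnnt3, the fast troponin T, had 32 and 18. Actn2, the alpha-actinin of the Z-disc, had 12 and 25, Xirp1, another Xin-repeat protein, 26 and 47, and the formin Fhod3 19 and 14. Another 15 of the 36 had no read in either leg muscle. Among the 76 genes with at least 100 reads, the pattern over the 3 libraries closest to that of Neb was that of Ryr1, the calcium release channel (0 cardiac, 100 EDL and 35 soleus reads, distance 0.852 in centred log2 RPM). Cacna1s, its voltage sensor, followed (2, 129 and 87 reads, 1.36), and then the fast myosin heavy chains Myh1 (1.97), Myh4 (2.56) and Myh2 (2.85).

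Reads did not cover Neb evenly, and the libraries differed in where they lay. In soleus the 3′ end was covered most. The best covered part had 912 full-length reads, and 32 covered the most 5′ part tested. EDL had 208 reads there, a rise to 564 further along, a fall to 78 near the middle of the gene and 862 at its best covered part. Per full-length read in the library, EDL stood 7.49-fold above soleus at the most 5′ part (interval 5.14 to 11.2). The largest ratio along the gene was 17.2 (149 against 10 reads, 9.07 to 36.5), and the lowest was 0.243 (0.201 to 0.292) over the last part of the 3′ untranslated region (138 against 654 reads). In consensus reads, scaled to the consensus reads of each library, the same 3 ratios were 1.10 (0.480 to 2.57), 6.94 (3.58 to 15.02) and 0.487 (0.355 to 0.663). At the most 5′ part, which 15 consensus reads covered in EDL and 12 in soleus, the interval in consensus reads thus spans a ratio of 1. In EDL the coverage fell from 780 reads just before exon 137 to 572 on it and to 242 on exon 138, where the second site begins. Soleus fell only from 909 to 898 and 861. A read that contains the whole phased region was thus rarer in EDL. It was found for 238 of 857 overlapping full-length reads in EDL (27.8%) and 856 of 913 in soleus (93.8%), and for 48.4% of 254 and 83.9% of 211 overlapping consensus reads. In the region, a consensus read merged 1.93 full-length reads in EDL and 4.84 in soleus on average. Where the molecules ended inside the gene, the choices further 3′ could not be seen, and why they ended there was not tested.

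**Figure D1:**
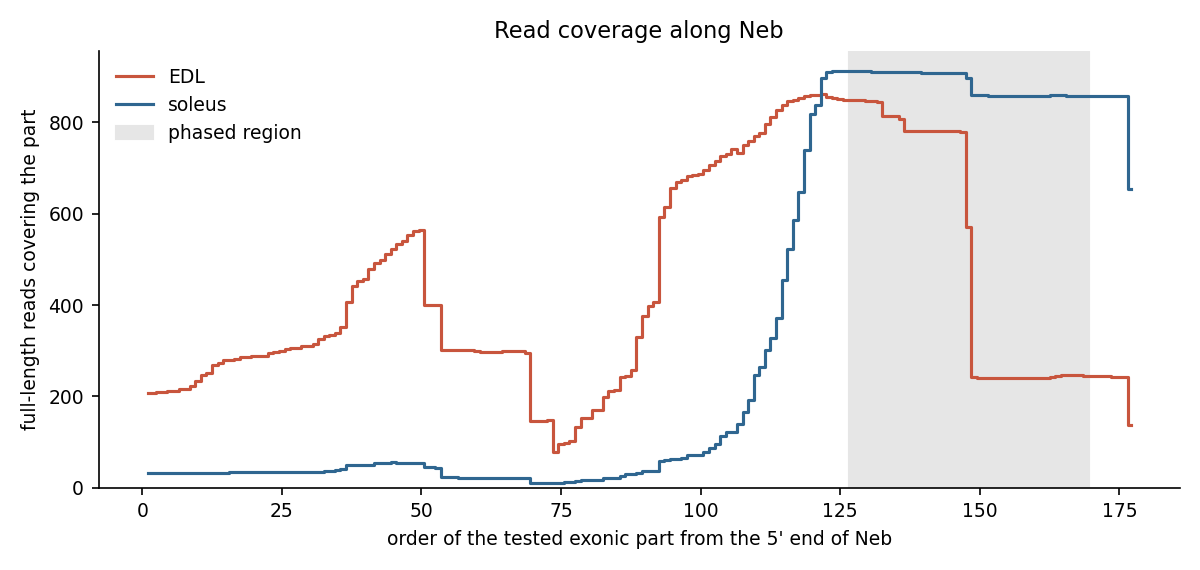
Full-length reads covering each of the 177 tested exonic parts of Neb, in order from the 5′ end, in EDL and soleus; the grey band is the phased region. EDL drops from 780 to 242 reads inside the band, while soleus stays above 850 there and has its lowest value, 10 reads, near the middle of the gene.

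Most Neb parts were held by nearly all reads of both leg muscles. Of the 190 parts, 177 were covered by at least 10 full-length reads in both libraries and could be tested, and the other 13 were not, 1 of which the authors list as an artifact. At least 95% of the covering full-length reads held the part in both libraries for 115 of the 177, and under 5% did for 8. A part was called when Fisher's exact test (two-sided, on reads holding or lacking it) gave an adjusted p under 0.05 over all genes, the shares differed by at least 20 percentage points and at least 30 consensus reads covered it in EDL or soleus. Of the 177 parts, 14 were called, against 48 of 17043 over all genes (0.282%). Of the 167 Neb parts with the coverage to be called, these 14 are 8.38%, against 48 of 4278 over all genes (1.12%) and 34 of 4111 outside Neb (0.827%). Neb had the most called parts of any gene, followed by Ttn with 5 of 280 tested. Neighbouring parts of a gene are read on the same molecules, so called parts are not separate observations. The 14 parts belong to 13 exons, the pair at the first site and the 11 variable exons, since exon 146 was cut into 2 parts. All 14 are in the authors' own Neb sheet, which comes from the same data. The coverage and difference thresholds used here are those of the deposited protocol, so this overlap is no separate check. Higher shares in soleus were found for 13 parts (0.631% over all genes, among parts with the coverage) and a higher share in EDL for 1, the alternative exon (0.491%).

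Exon 149 was the only other part with an adjusted p under 0.05. It was held by 224 of 247 full-length reads in EDL (90.7%, 95% interval 86.4 to 94.0) and 854 of 857 in soleus (99.6%, 99.0 to 99.9). The difference of -8.96 points (Fisher's exact test, adjusted p = 3.07e-10) was under the 20 points of the call rule. The remaining 39 parts with a share between 5% and 95% in a library lie further 5′, where 10 to 59 full-length reads covered them in soleus. Each was lacking in 6 to 8 EDL reads and 2 to 3 soleus reads, with an adjusted p of 1 (Fisher's exact test).

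Within the reads that span the region, the share of EDL reads holding a variable exon was lowest in the middle of the second site. In EDL, exon 138 was held by 39.1% of the 238 reads (32.8 to 45.6), exon 140 by 76.9%, exon 143 by 35.7% and exon 146 by 29.4%. Exon 147 and extra exon 1 were each held by 16 reads (6.72%), extra exon 2 by 15 and extra exon 3 by 17. From there the shares climbed again, to 16.4% for exon 148, 23.9% for exon 150 and 39.9% for exon 151. In soleus the lowest of the 11 was extra exon 1, in 754 of 856 reads (88.1%), and exons 138 and 140 were each lacking in 1 read. Exons 139, 141, 142 and 144, which lie between the variable ones, were held by 236 of 238 reads in EDL and by all 856 in soleus. The 2 EDL reads without them lacked all 24 exons examined.

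**Figure D2:**
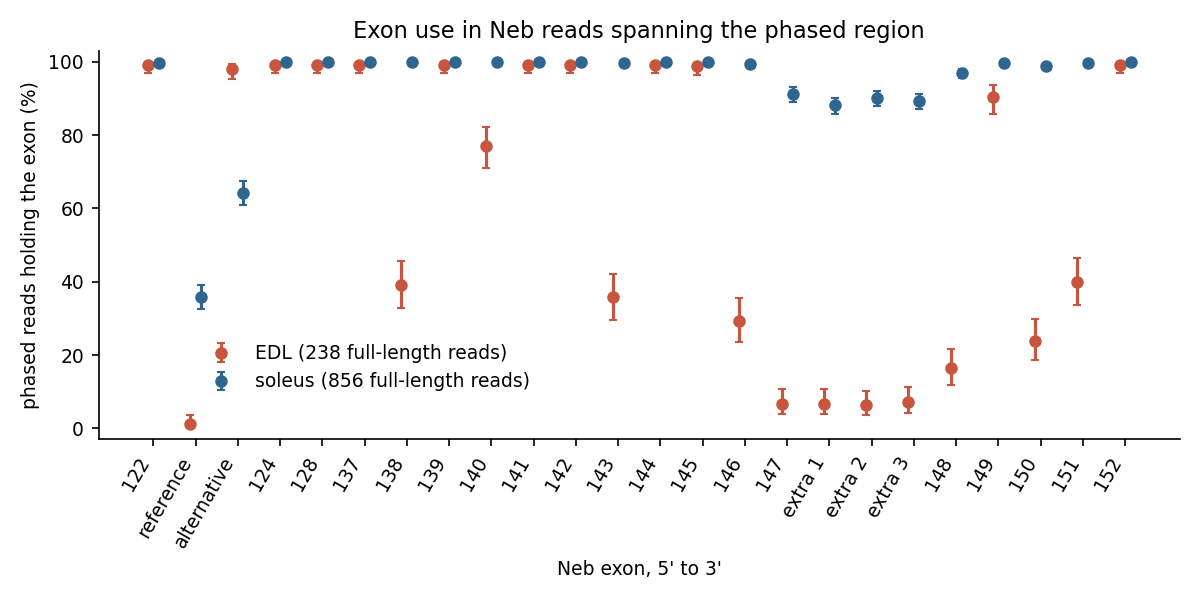
Share of phased full-length reads holding each of the 24 exons examined, 5′ to 3′, in EDL (238 reads) and soleus (856 reads), with exact 95% binomial intervals for counting error. Soleus lies at 88.1% or above for every variable exon of the second site, while EDL falls to 6.30% at extra exon 2 and is near 100% at exons 139, 141, 142 and 144 between them; exon 149 is at 90.3% in EDL.

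At the first site, no phased read held both exons, 0 of 238 in EDL (which allows a share of up to 1.26%) and 0 of 856 in soleus (up to 0.350%), and neither was held by 2 and 1 reads. In EDL 233 reads had the alternative exon (97.9%, 95.2 to 99.3) and 3 had the reference exon. In soleus 549 had the alternative exon (64.1%, 60.8 to 67.4) and 306 had the reference exon (35.7%, 32.5 to 39.1). Soleus thus used both choices while EDL used almost only the alternative exon. Over all full-length reads covering the site, phased or not, 843 of 850 in EDL held the alternative exon and 8 the reference exon, which sum to 851, so at least 1 EDL read held both. In consensus reads it was 244 and 7 of 249, so at least 2. In soleus 593 and 317 of 912 full-length reads held them.

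A structure is the combination of the 24 exons on 1 read. Of 56 structures in the authors' sheet, 53 had a read in a leg muscle. EDL had 37 structures, 11 of them on a single read, and soleus 28, 15 of them on a single read. The libraries shared 12 structures, which are 32.4% of those in EDL and 42.9% of those in soleus, and which held 28.99% and 61.1% of their reads. The 3 structures of annotated transcripts listed by the authors had no read in either library.

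Only 5 structures reached 5% of the reads of a library. As that picks them by their share in the same reads, the p-values given for them are adjusted over all 53 structures with a read (two-sided Fisher's exact test), of which 13 were past 0.05. The p-values treat full-length reads as independent, though a consensus read in the region merged 1.93 of them in EDL and 4.84 in soleus on average. The structure with the alternative exon and all 11 variable exons led in soleus. It had 435 reads there (50.8%, 47.4 to 54.2) and 14 in EDL (5.88%, 3.25 to 9.67; Fisher's exact test, adjusted p = 7.54e-41). Its twin with the reference exon in place of the alternative exon had 298 soleus reads (34.8%, 31.6 to 38.1) and none in EDL (Fisher's exact test, adjusted p = 2.91e-37). So 2 structures that differ at the first site made up most of the soleus reads.

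In EDL the leading structure had the alternative exon and, of the 11 variable exons, only exon 140. It had 71 reads (29.8%, 24.1 to 36.1) and none in soleus (Fisher's exact test, adjusted p = 4.33e-50). The next lacked exon 140 too and so held none of the 11. It had 42 reads in EDL (17.6%, 13.02 to 23.1) and none in soleus (Fisher's exact test, adjusted p = 9.43e-29). The fifth structure was found in both libraries. It lacked exon 147 and the extra exons 1, 2 and 3 and held the other 7, on 20 EDL reads (8.40%, 5.21 to 12.7) and 40 soleus reads (4.67%, 3.36 to 6.31; Fisher's exact test, adjusted p = 0.119), a difference that did not pass the test. The other structures were small. In EDL, 33 of them shared 38.2% of the reads, none above 3.78%, and in soleus 25 shared 9.70%, none above 2.22%.

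**Figure D3:**
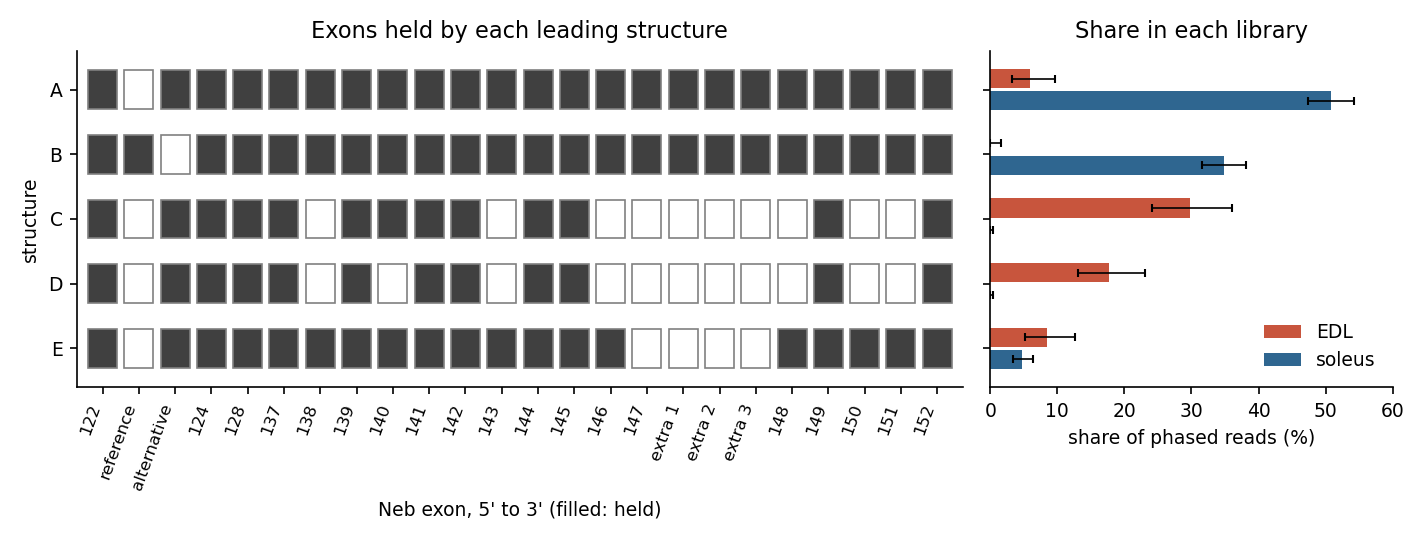
Left, the exons held (filled) by the 5 structures with at least 5% of the phased reads of EDL or soleus, lettered A to E in order of their summed share; right, their shares with exact 95% binomial intervals. Structures A and B make up 50.8% and 34.8% of soleus reads, and C and D 29.8% and 17.6% of EDL reads with none in soleus.

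Counted per read, EDL held a median of 1 of the 11 variable exons (quartiles 1 and 5) and soleus a median of 11 (quartiles 11 and 11). All 11 were held by 14 EDL reads (5.88%) and 736 soleus reads (86.0%, 83.5 to 88.2). The intervals here take full-length reads as independent, which they may not be. In soleus, extra exon 1 alone was held by 68.5% of 178 covering consensus reads. The soleus share with all 11 would thus be lower in consensus reads, in which it was not counted. None was held by 48 EDL reads (20.2%, 15.3 to 25.8) and by 1 soleus read. At most 2 were held by 153 EDL reads (64.3%) and 2 soleus reads. The leading EDL structure sums to 1347 nt over the 24 exons and the leading soleus structure to 2323 nt, which is 976 nt more. Over all reads of the region the mean was 1511 nt in EDL and 2276 nt in soleus.

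**Figure D4:**
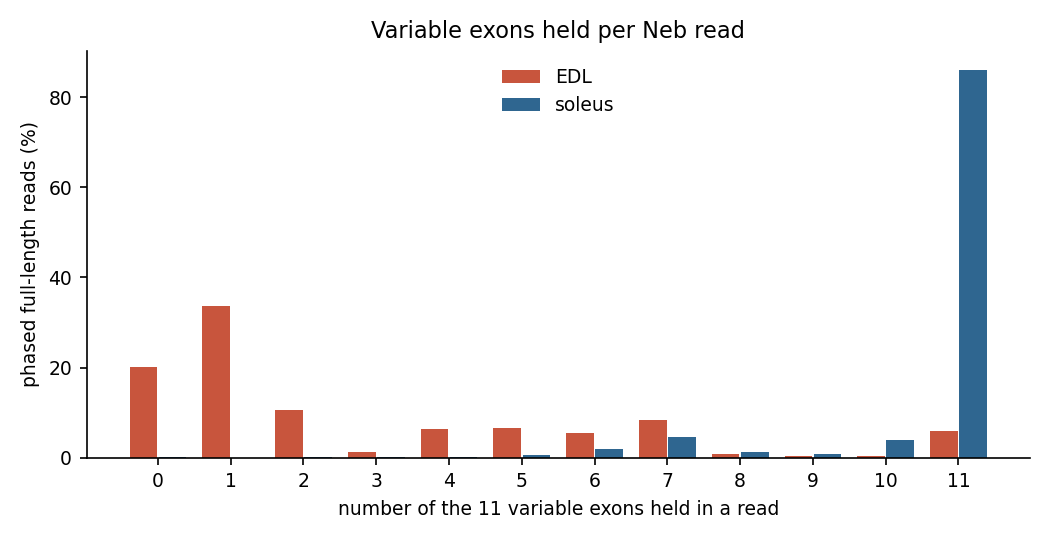
Share of phased full-length reads by the number of the 11 variable exons they hold, in EDL and soleus. Soleus has 86.0% of its reads at 11, while EDL has 33.6% at 1, 20.2% at 0, a smaller group of 8.40% at 7 and 5.88% at 11.

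The exons that each read kept were set against the order of exon use in EDL. Ranked by their share over all covering EDL reads, the order was exon 140, 151, 138, 143, 146, 150, 148, then the extra exons 3 and 2, with exon 147 and extra exon 1 last and level. A read is nested when it holds no exon ranked below one it lacks. In EDL 204 of 238 reads were nested (85.7%), and of the 176 reads holding some but not all of the 11, 142 were (80.7%, 74.1 to 86.2). In soleus 825 of 856 reads were nested, and 88 of the 119 reads with some but not all (73.9%, 65.1 to 81.6). The order was taken from the EDL shares, so these counts describe the reads and are no test.

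The 4 least used exons went together. Exon 147 and the extra exons 1 to 3 were all held by 14 EDL reads, all lacking in 219 (92.0%) and mixed in only 5 (2.10%). In soleus they were all held by 736 reads, all lacking in 68 (7.94%) and mixed in 52 (6.07%). Any pair of the 4 was in the same state, both held or both lacking, in 97.9% to 99.6% of EDL reads and 95.7% to 98.7% of soleus reads. Exons that most reads lack, or most hold, share a state in most reads anyway. The share expected from the use of each exon alone was not computed. A soleus read that held all 4 thus also held the other 7, since 736 is the number of reads with all 11.

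In soleus, where both choices of the first site were common, it could be asked whether the choice went with the exons further 3′ on the same molecule. Reads with the reference exon held all 11 variable exons in 300 of 306 cases (98.0%, 95.8 to 99.3), and reads with the alternative exon in 435 of 549 (79.2%, 75.6 to 82.6; two-sided Fisher's exact test, p = 2.47e-17). The gap lay in the middle of the site. Extra exon 1 was held by 99.0% of the reads with the reference exon and 82.0% of those with the alternative exon (Fisher's exact test, adjusted p = 5.65e-16 over the 11 exons). Exon 147 was held by 98.7% and 87.1%, extra exon 2 by 99.0% and 85.1%, extra exon 3 by 99.0% and 83.8%, and exon 148 by 99.3% and 95.4%, each past the same test. For the other 6 exons the adjusted p was 0.199 or above, with shares of 98.2% or more after either choice. In EDL, only 3 reads held the reference exon and none of them had all 11, too few for this comparison. Full-length reads of 1 consensus read share their exon calls, and the sheet does not tie structures to consensus reads, so the soleus p-values treat reads as independent that may not be.

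**Figure D5:**
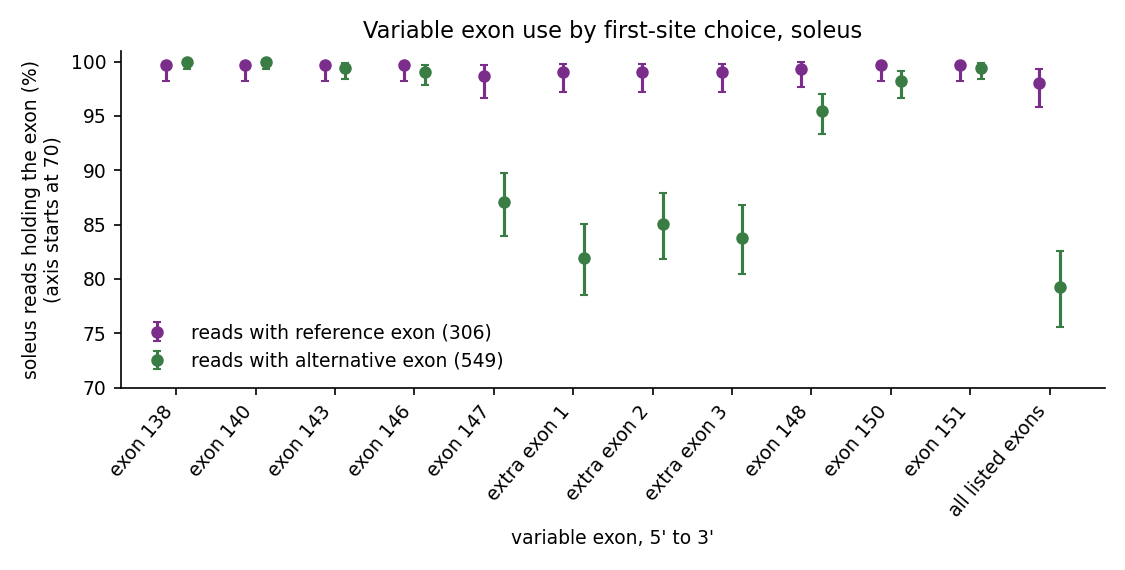
Share of soleus reads holding each variable exon, and all 11, in the 306 reads with the reference exon and the 549 reads with the alternative exon, with exact 95% binomial intervals; the axis starts at 70%. The intervals part at exons 147 and 148, the extra exons 1 to 3 and all 11 together, where the shares are 98.0% and 79.2%.

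The second site also differed between the libraries when the first site was held fixed. Among reads with the alternative exon alone, 233 in EDL and 549 in soleus, all 11 variable exons had lower shares in EDL by 20 points or more. Exon 147 was held by 6.87% in EDL and 87.1% in soleus, and exon 148 by 16.7% and 95.4%. Exon 138 was held by 39.1% and 100%, and exon 140 by 77.3% and 100% (Fisher's exact test, adjusted p between 1.26e-111 and 2.92e-30 for all 11). These p-values too treat full-length reads as independent that may not be.

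Counting each consensus read once moved shares in both libraries, most of all those of 4 exons in soleus. There, exon 147 was held by 91.3% of 859 covering full-length reads and by 77.5% of 178 consensus reads. Extra exon 1 went from 87.8% to 68.5%, extra exon 2 from 89.8% to 73.2% and extra exon 3 from 89.0% to 71.5%. Exon 148 went from 96.9% to 89.4% in soleus. In EDL, exon 147 went only from 6.67% to 8.00%, but exon 151 went from 41.5% to 50.4%, exon 143 from 36.3% to 44.8% and exon 138 from 39.7% to 47.2%. The 14 parts called were the same 14 on consensus reads, among 19 then called over all genes.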

How the data were processed

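RNA of EDL, soleus and cardiac apex was made into cDNA with a SMARTer kit, size-selected on BluePippin and sequenced as Iso-Seq, per the labels' protocols. The submitters' processing notes name STAR 2.5.0am and the builds mm10 and GRCm38. The authors deposited raw counts of consensus reads per gene, and raw counts of consensus and full-length reads covering and holding each exonic part and, for Neb, full-length read counts per exon combination. The other deposited values used are positions, exon numbers and list memberships. Deposited start positions count from 0 and are printed counted from 1.

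From these counts, shares were computed with exact Clopper-Pearson 95% intervals, and gene ratios on RPM (consensus reads scaled to reads in genes) with an exact interval (conditional binomial). A gene was called when it had 20 or more reads over both libraries and its interval lay beyond 2-fold. Fisher's exact tests were adjusted by Benjamini-Hochberg over all parts with at least 10 full-length reads in both libraries. The planned adjustment for structures, over those with at least 5% of reads, was replaced in the report by one over all 53 with a read. These tests compare libraries, not tissues. Those on full-length reads, and the intervals of shares of such reads, take the reads as independent. Reads merged in 1 consensus read may not be. A share of 0 is given with the limit that 3 counts allow. The tests were run in Python 3.11.15 with scipy 1.17.1. The part test and the interval of the gene ratio were tested on simulated data. Reads were drawn there as independent, so reads merged in 1 consensus read were not simulated. All Neb parts in the authors' sheet, every called part, every covered part with a share of 5% to 95%, and structures with at least 5% of reads are named or counted. The members and lists were chosen with earlier results of these data known.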

Additional observations from a re-analysis of the deposited data

How the results depend on the processing

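No paired analysis was possible because each tissue had 1 library, and for the same reason no library could be left out. Of 71 values under alternatives, none reversed, and 69 kept their call or, for counts, stayed within 1.5 times. Of the 71, 52 are for a single exon or structure and many rest on the same reads, so they are not separate checks. A kept call allows a large move. The difference at extra exon 1 moved by 20.6 points on consensus reads. The median number of variable exons per read was higher in soleus by 10 over all reads and by 5.5 when each structure was counted once (medians 3 in EDL and 8.5 in soleus). The fifth structure had an adjusted p of 0.0351 over the 5 structures with at least 5% of reads and 0.119 over all 53 (Fisher's exact test; 0.000727 to 0.119 over its 3 alternatives), and the other 4 were past the test in each. The Neb ratio of EDL over soleus was 1.09 to 1.81 over its alternatives and uncalled in each. The called Neb parts numbered 14 under 4 alternatives and 13 at 30 points, which drops exon 140. Parts called over all genes numbered 48 on full-length reads, 19 on consensus reads and 31 with 30 consensus reads in both libraries. Genes called were 11 under both alternatives against 9. With single-read structures left out, the same 5 soleus exons were past the linkage test, and 6 of the 11 exons, against 9, had the higher share with the reference exon. The comparison within alternative-exon reads and the adjustment over all 53 structures were added after seeing the data. Structures by consensus reads were not run, since the sheet gives full-length reads, nor was the linkage with each structure counted once (8 against 19 structures). Depth limits EDL most: 238 reads span the region, and a structure below 1.26% of them may go unseen.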
